A study of Mus musculus with 4 samples.

Results

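Cholinergic motor neuron identity genes are described here, a set of 7 of the 18674 gene names in a table of lumbar spinal cord RNA. They were chosen by name: *Chat*, *Slc18a3*, *Slc5a7*, *Ache*, *Prima1*, *Isl1* and *Mnx1*, each of which has 1 of the 23750 transcripts listed. RNA was sequenced from wild type (WT) mice and from G93A mice (the high-expresser H1 line), which carry a human *SOD1* transgene with the G93A mutation and serve as a model of amyotrophic lateral sclerosis (ALS). Mice of either genotype were given vehicle or spermidine (SD, a polyamine), and there was 1 library for each of the 4 conditions. Per the methods, the colony is kept on a B6/SJLF1 background and the mice were 100 days old after 30 days of SD or PBS, which the labels put at 4 injections per week. The dose, 5 mg/kg, comes from the section on dosing, and other sections name saline as the vehicle and give other spans or another weekly number of injections. What the WT and G93A mice share is therefore the colony background, the injections and the age. The transgene is an extra human gene and not a change of the mouse gene, and the tissue is whole lumbar cord, in which motor neurons are a small part of the cells. The number of animals behind a library is not given in the sources used here, and with 1 library per condition no difference below has a replicate check or a p-value.

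Spinal motor neurons release acetylcholine onto skeletal muscle and onto other spinal neurons. The enzyme ChAT joins choline to an acetyl group, a vesicular transporter loads the product into synaptic vesicles, an esterase in the synaptic cleft splits it, and a high-affinity transporter returns the choline to the terminal. The transcription factors that direct motor neuron fate in the embryo are still made at a low level in the adult cord, and loss of large motor neurons of the lumbar cord is the hallmark of the G93A model.

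Values are in RPKM, reads divided by transcript length and by the mapped reads of the library, a unit inferred from the values, so that levels of different genes can be compared per length. A gene is said to rise or fall where its level differed at least 1.5-fold on the log2(RPKM + 0.1) scale, and for all other differences the values alone are given. The depth was estimated from low values at between 36800000 and 38600000 read pairs per library. The length per pair was assumed and the search range was narrow, so the closeness of these depths is no result. The sum of RPKM was between 376852 and 393328. Genotype labels were checked on glial markers: 8 of 8 microglial genes rose in G93A vehicle against WT vehicle, and their summed level went from 120.2 to 881.7 RPKM, while in WT + SD and G93A + SD it was 99.6 and 947.6 RPKM. Pan-neuronal genes, which serve below as a measure of neuronal RNA as a whole, had a summed level of 2450 RPKM over 8 measured genes in WT vehicle.

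*Chat* and *Slc18a3* form the cholinergic gene locus. In GRCm38, *Chat* lies on the minus strand at chr14:32408203-32465989 with 16 exons, and *Slc18a3*, a gene of 1 exon on the same strand, lies inside it at chr14:32462438-32464850. The pair shares 0 exonic bases. Their start sites are 1059 bases apart, and the 250 bases before each are shown because the levels of the pair can be followed side by side in every library. *Isl1*, on the minus strand at chr13:116298281-116309689, is shown with them because its level hardly differed between libraries. The sequences are from RefSeq for GRCm38.p6, 5′ to 3′ on the gene's strand, at chr14:32465910-32466159, chr14:32464851-32465100 and chr13:116309689-116309938, and capitals mark matches to the motifs named below.
Chat: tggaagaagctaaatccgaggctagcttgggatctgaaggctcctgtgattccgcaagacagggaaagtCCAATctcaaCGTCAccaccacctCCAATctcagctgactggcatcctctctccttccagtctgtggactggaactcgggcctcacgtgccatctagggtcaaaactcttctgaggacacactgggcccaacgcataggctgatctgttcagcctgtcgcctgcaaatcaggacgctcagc
Slc18a3: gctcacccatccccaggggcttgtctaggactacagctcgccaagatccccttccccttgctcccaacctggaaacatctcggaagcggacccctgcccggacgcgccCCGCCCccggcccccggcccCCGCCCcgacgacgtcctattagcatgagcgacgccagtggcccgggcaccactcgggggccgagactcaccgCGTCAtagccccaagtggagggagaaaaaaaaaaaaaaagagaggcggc
Isl1: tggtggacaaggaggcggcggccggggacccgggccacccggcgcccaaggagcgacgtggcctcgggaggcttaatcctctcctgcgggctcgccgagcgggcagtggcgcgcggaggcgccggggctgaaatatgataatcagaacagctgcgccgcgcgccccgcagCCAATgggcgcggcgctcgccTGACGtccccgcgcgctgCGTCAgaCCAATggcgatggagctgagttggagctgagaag

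Motifs were searched on both strands of the 300 bases from 250 before to 50 after the start, for which 7 of 7 members had a RefSeq entry. CCAAT was found in *Chat*, *Isl1* and *Mnx1*, and in 37.4% of all 32851 promoters. GGGCGG, a GC box, was found in *Slc18a3*, *Ache*, *Prima1* and *Mnx1*, and in 35.7% of all promoters. TGACG, a core of the cAMP response element, was found in *Chat*, *Slc18a3* and *Isl1*, against 20.8% of all promoters, so that it stood in members that fell and in one that did not. TATAAA was found in *Slc5a7* alone of the members (13.6% of all promoters), and TAATTA, a core that homeodomain proteins bind, in 0 members (5.29% of all promoters). None of these motifs contains another, and a match is only a description of the sequence.

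*Chat* encodes choline acetyltransferase, the enzyme that makes acetylcholine. It had 9.83 RPKM in WT vehicle and 8.57 in WT + SD, against 6.55 in G93A vehicle and 4.33 in G93A + SD. Both WT libraries lay above both G93A libraries, and G93A + SD was the lowest. These levels correspond to an estimated 1035, 937, 711 and 477 read pairs in the same order.

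*Slc18a3* encodes the vesicular acetylcholine transporter, which fills synaptic vesicles. Its level was 15.9 RPKM in WT vehicle and 12.7 in WT + SD, against 10.5 in G93A vehicle and 7.87 in G93A + SD. The order of the libraries was that of *Chat*. The ratio of *Chat* to *Slc18a3* was 0.618 under vehicle and 0.674 under SD in WT cord, and 0.624 and 0.550 in G93A cord. It did not separate the genotypes, as the levels of both genes did.

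*Slc5a7*, at chr17:54273590-54299034 on the minus strand with 9 exons, encodes the high-affinity choline transporter. It was listed at 28.2 RPKM in each of WT vehicle and WT + SD, at 21.9 in G93A vehicle and at 16.1 in G93A + SD. The WT libraries hold nearly the same value, and both G93A libraries are lower. Relative to *Chat*, its level was 2.87 times as high under vehicle and 3.29 times under SD in WT cord, and 3.35 and 3.72 times in G93A cord.

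*Ache*, at chr5:137287519-137294466 on the plus strand, encodes acetylcholinesterase, which splits acetylcholine and is also made by neurons that are not cholinergic. It was the most abundant member in every library, with 59.1 RPKM in WT vehicle and 53.3 in WT + SD, against 36.7 in G93A vehicle and 31.2 in G93A + SD. *Prima1*, at chr12:103196908-103242150 on the minus strand, encodes the proline-rich membrane anchor that holds the esterase in neuronal membranes. It had 10.6 RPKM in WT vehicle and 11.0 in WT + SD, against 7.83 in G93A vehicle and 6.92 in G93A + SD. The enzyme and its anchor were both lower in the G93A libraries. The ratio of *Ache* to *Prima1* was 5.59 in WT vehicle and between 4.51 and 4.84 in the other 3 libraries.

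*Isl1* and *Mnx1* are the 2 transcription factors of the set. *Isl1* encodes a LIM homeodomain protein needed for motor neuron birth, which also marks sensory neurons and some dorsal interneurons. Its level was 0.770 RPKM in WT vehicle and 0.760 in WT + SD, against 0.806 in G93A vehicle and 0.812 in G93A + SD, the narrowest spread of any member. *Mnx1*, at chr5:29473034-29478470 on the minus strand, encodes HB9, a homeodomain protein that keeps motor neurons from taking on an interneuron fate. It had 0.672 RPKM in WT vehicle and 0.675 in WT + SD, against 0.308 in G93A vehicle and 0.222 in G93A + SD, so that both WT levels were over the G93A levels. The ratio of *Isl1* to *Mnx1* was 1.15 under vehicle and 1.13 under SD in WT cord, and 2.62 and 3.65 in G93A cord. Both genes were low: *Isl1* rests on an estimated 71.4 to 78.8 read pairs, and *Mnx1* on 55.6 in WT vehicle and 19.3 in G93A + SD, the lowest estimate of any member. For *Mnx1* this number is rough, since the ends of its GENCODE and RefSeq models differ by 789 bases in all.

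The order of levels was the same in all 4 libraries, *Ache* above *Slc5a7*, *Slc18a3*, *Prima1*, *Chat*, *Isl1* and *Mnx1*. *Prima1* and *Chat* were close in level in WT vehicle, as were *Isl1* and *Mnx1* in both WT libraries, and their order has no replicate check. For *Chat*, 0.178% of its stretches of 53 bases, the read length that the methods name, occur in transcripts of other genes, and for the other 6 members none do. The depth estimate instead rests on an assumed 216 aligned bases per read pair, more than a pair of such reads covers. Since that length was assumed, it cannot show whether the stated read length and the values match. *Chat* and *Ache* overlap non-coding genes on the opposite strand without sharing exonic bases, and whether reads were counted by strand is not stated.

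**Figure D1:**
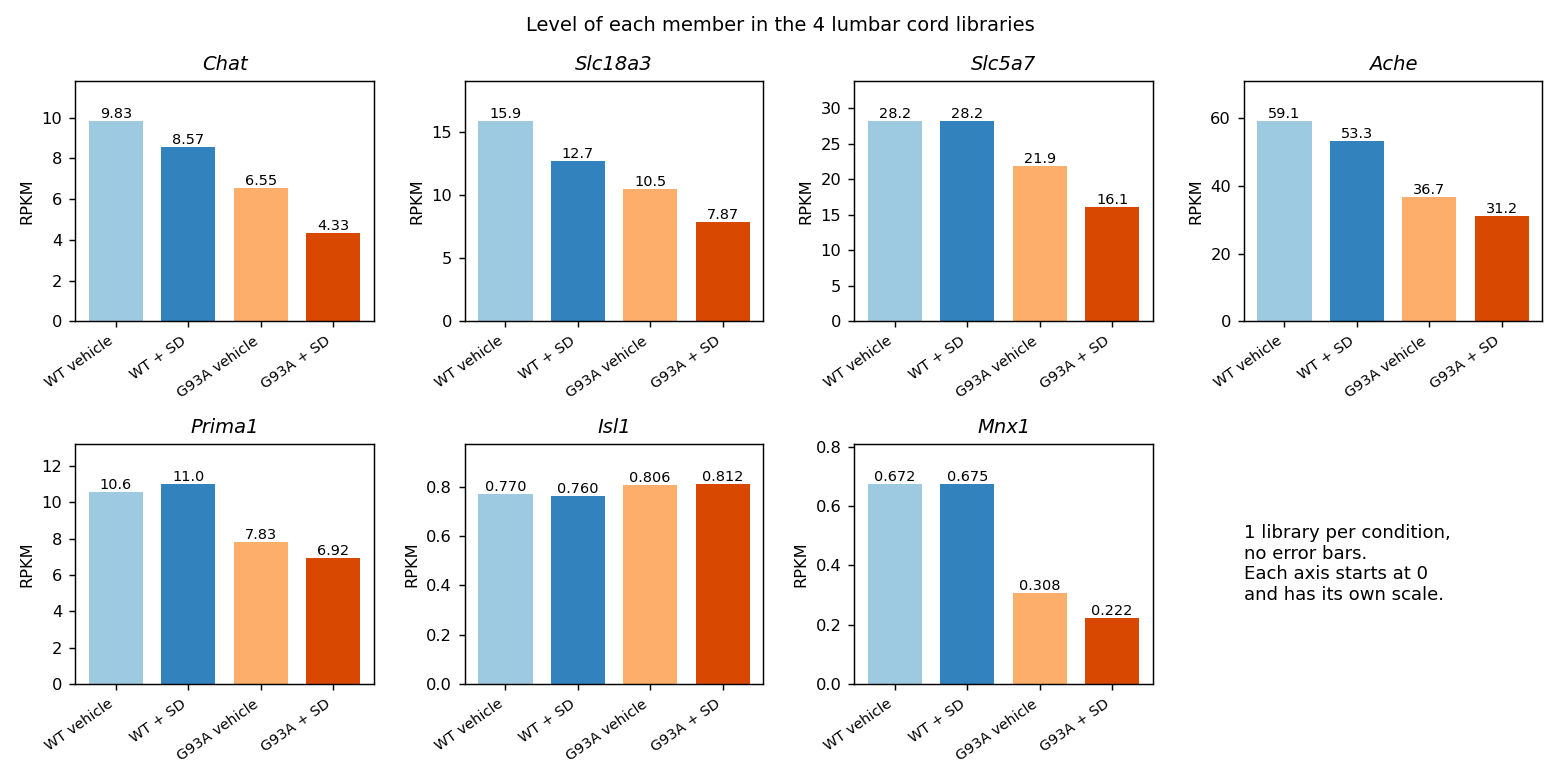
Level of each of the 7 genes in RPKM (bars, 1 library each, no error bars, axes from 0) under vehicle and under SD in WT and in G93A cord. For *Chat*, *Slc18a3*, *Slc5a7*, *Ache*, *Prima1* and *Mnx1* both G93A bars stand below both WT bars, while *Isl1* stays between 0.760 and 0.812 RPKM.

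The first comparison asked how the genes differ between genotypes under vehicle. *Slc18a3*, *Ache* and *Mnx1* fell in G93A vehicle, to 65.9%, 62.0% and 45.8% of their WT vehicle levels, with log2 fold changes of -0.60, -0.69 and -0.92. With a pseudocount of 1 RPKM *Slc18a3* was at -0.56 and *Mnx1* at -0.35, short of 1.5-fold, and *Ache* alone fell. *Chat* stood at 66.6% of WT vehicle, a log2 fold change of -0.58, which is 1.49-fold with the pseudocount and just past 1.5-fold without it. *Slc5a7* (77.7%, -0.36), *Prima1* (74.0%, -0.43) and *Isl1* (104.6%, 0.058) did not reach 1.5-fold. With the libraries scaled to the same sum of RPKM, *Isl1* was at -0.034, so that it has no stable direction. Of the 7 members, 3 fell and 0 rose, where 5.31% of all names fell and 14.4% rose. The median log2 fold change of the members was -0.58, against 0.046 over all names. In whole cord, fewer motor neurons and less RNA per motor neuron cannot be told apart.

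Pan-neuronal genes were also lower in the G93A libraries. They had a median log2 fold change of -0.43 in G93A vehicle against WT vehicle, and their summed level went from 2450 to 1660 RPKM. The median of the members minus that of the pan-neuronal genes was -0.14 on the log2 scale, and 4 of the 7 members (*Chat*, *Slc18a3*, *Ache* and *Mnx1*) lay below the pan-neuronal median. Relative to that median, 0 members fell 1.5-fold. The astrocyte and microglial markers moved in the other direction. The summed level of 5 astrocyte genes was 867.2 RPKM in WT vehicle and 2891 in G93A vehicle, and 4 of them rose along with the 8 microglial genes. Of 5 erythroid genes 4 rose as well, with summed levels of 34.4 and 51.7 RPKM. The summed level of 5 oligodendrocyte genes was 8552 and 6981 RPKM, and 0 of them reached 1.5-fold. The part of these shifts in the levels of the members was not tested.

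The second comparison was of the same genotypes after SD. Here 6 of 7 members fell in G93A + SD against WT + SD, where 7.82% of all names fell and 17.1% rose, and 0 members rose. *Mnx1* fell furthest, to 32.9% of WT + SD, a log2 fold change of -1.27. With a pseudocount of 1 RPKM *Mnx1* was at -0.45, short of 1.5-fold and the smallest difference of these 6, so that its rank and its call depend on the pseudocount. *Chat* followed at 50.5%, or -0.97 on the log2 scale, then *Slc5a7* at 57.2% (-0.80), *Ache* at 58.5% (-0.77), *Slc18a3* at 61.9% (-0.68) and *Prima1* at 62.8% (-0.66). *Isl1* had 106.7% of WT + SD, a log2 fold change of 0.083 that was -0.018 with the same sum of RPKM in each library. The median over the members was -0.77, against 0.050 over all names and -0.52 over the pan-neuronal genes. Relative to the pan-neuronal median, only *Mnx1* of the 7 members fell 1.5-fold, and *Isl1* was 1.5-fold higher, with a log2 difference of 0.61. The summed level of 5 astrocyte genes was 803.5 RPKM in WT + SD and 3434 in G93A + SD, and 4 of them rose. For 5 oligodendrocyte genes the sums were 8852 and 6428 RPKM, and 1 of them fell. The part of these shifts in the levels of the members was not tested either.

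**Figure D2:**
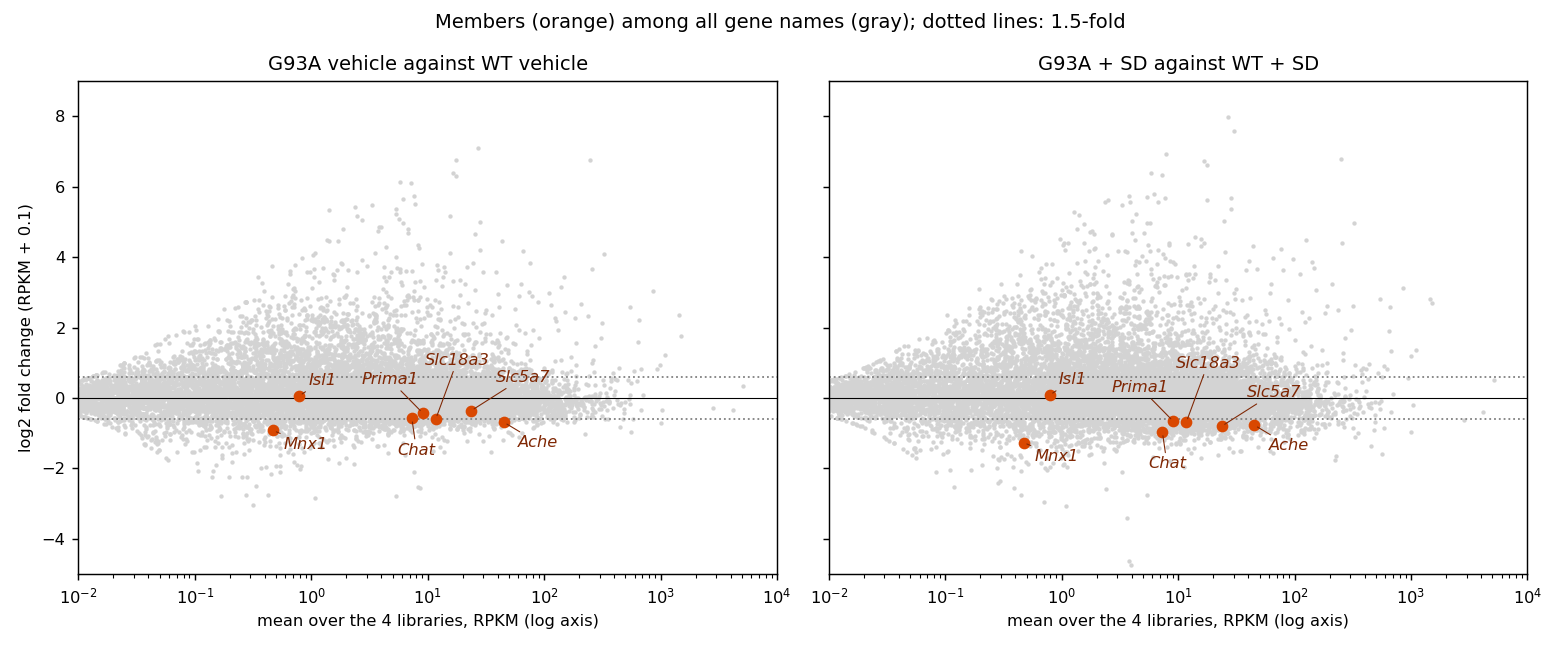
Log2 fold change on the log2(RPKM + 0.1) scale (vertical axis) against the mean level over the 4 libraries in RPKM (horizontal log axis) for all names (gray) and the 7 members (orange), for G93A vehicle against WT vehicle (left) and G93A + SD against WT + SD (right). All members but *Isl1*, which is below 0 with the same sum of RPKM in each library, lie below 0 in both panels, and 6 of them lie below the lower dotted line of 1.5-fold on the right.

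The third comparison was of SD with vehicle in WT cord. No member reached 1.5-fold in either direction (0 of 7), where 2.80% of all names fell and 2.25% rose. The values ran from -0.32 for *Slc18a3*, which had 79.9% of its WT vehicle level, to 0.059 for *Prima1*, which had 104.2%. *Chat* had 87.2% and *Ache* 90.2%, while *Slc5a7*, *Isl1* and *Mnx1* lay between 98.7% and 100.4%. The median log2 fold change was -0.016, against 0.0044 over all names. Markers of red blood cells moved between these WT libraries: all 5 measured erythroid genes rose in WT + SD, their summed level going from 34.4 to 69.3 RPKM. Their part in the values above was not tested.

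The fourth comparison was of SD with vehicle in G93A cord. *Chat* alone fell, from 6.55 to 4.33 RPKM, a log2 fold change of -0.59 that is just past 1.5-fold, and 0 members rose. Relative to the pan-neuronal median *Chat* was at -0.45 and with a pseudocount of 1 RPKM at -0.50, and 0 members fell in either case. Over all names 2.55% fell and 2.97% rose. The other values were -0.44 for *Slc5a7*, -0.41 for *Slc18a3*, -0.34 for *Mnx1*, -0.23 for *Ache*, -0.17 for *Prima1* and 0.0092 for *Isl1*. The G93A + SD level was thus 73.6% of G93A vehicle for *Slc5a7*, 75.0% for *Slc18a3*, 72.2% for *Mnx1*, 85.1% for *Ache*, 88.4% for *Prima1* and 100.7% for *Isl1*. The median over the members was -0.34, against 0.0068 over all names and -0.13 over the pan-neuronal genes, and 6 of 7 members lay below the pan-neuronal median. The summed erythroid level was 51.7 RPKM in G93A vehicle and 55.7 in G93A + SD.

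The SD log2 fold change in G93A minus that in WT was -0.44 for *Slc5a7*, -0.39 for *Chat*, -0.34 for *Mnx1*, -0.23 for *Prima1*, -0.09 for *Slc18a3*, -0.08 for *Ache* and 0.025 for *Isl1*. The median was -0.23 over the members and 0.0017 over all names, of which 49.7% lay below 0. The difference uses all 4 libraries and was not tested. The 4 comparisons share libraries in pairs, so that a high or low value in 1 library enters 2 of them.

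**Figure D3:**
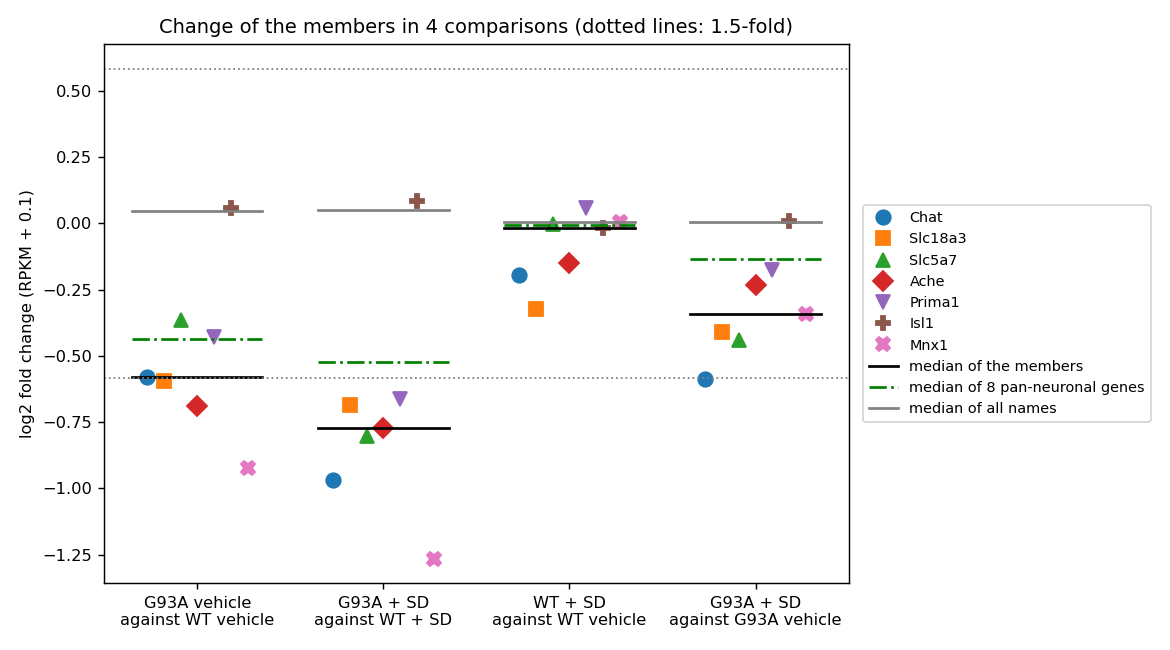
Log2 fold change of each member (symbols) in the 4 comparisons, on the log2(RPKM + 0.1) scale. Lines give the median of the members (black), of the 8 pan-neuronal genes (green) and of all names (gray), and the black line lies below the green line in both genotype comparisons and in G93A + SD against G93A vehicle, while the 3 lines meet in WT + SD against WT vehicle.

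Other genes of the cholinergic and motor neuron pathways were taken from 8 lists with 77 measured genes. In G93A vehicle against WT vehicle, 18 of the 77 fell and 3 rose, with a median log2 fold change of -0.17, where 5.31% of all names fell and 14.4% rose. In G93A + SD against WT + SD, 27 fell and 4 rose, with a median of -0.21, where 7.82% of all names fell and 17.1% rose. Relative to the pan-neuronal median, 5 were lower and 15 higher under vehicle, and 11 were lower and 23 higher under SD. That reference raises every name by the same amount in these comparisons. The shares of all names on that scale were not computed, so the turn is no result about these genes. SD against vehicle gave 1 lower and 1 higher in WT, where 2.80% and 2.25% of all names were lower and higher, and 6 lower and 1 higher in G93A, where these shares were 2.55% and 2.97%. The counts of single lists below are read against the same shares, and a count of 1 or 2 genes in a list is no result about that list.

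Of 13 genes that supply choline and acetyl groups or break acetylcholine down, 0 fell and 2 rose in G93A vehicle against WT vehicle, and 3 fell and 2 rose in G93A + SD against WT + SD. *Slc44a2*, a choline transporter-like protein made widely outside neurons, rose, with 14.1 and 12.1 RPKM in the vehicle and SD libraries of WT cord and 28.8 and 38.0 in those of G93A cord. *Slc44a1*, its relative and the most abundant gene of the list, had 69.7, 74.0, 94.9 and 99.6 RPKM in that order, without reaching 1.5-fold. *Acly*, which makes cytosolic acetyl-CoA, fell between genotypes under SD, with 102.1, 92.4, 74.0 and 60.3 RPKM. *Bche*, the second cholinesterase, had 3.18, 3.78, 2.76 and 2.30 RPKM, and fell under SD as well (-0.69). *Colq*, the collagen tail that anchors esterase at the neuromuscular junction, had 0.930, 1.11, 0.699 and 0.583 RPKM, and fell by 0.83 on the log2 scale between genotypes under SD.

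The most abundant muscarinic and nicotinic receptor genes, *Chrm2* and *Chrna4*, fell in both genotype comparisons. *Chrm2*, the M2 muscarinic receptor that sits opposite cholinergic C-boutons on motor neurons, had 17.3, 17.5, 7.69 and 6.38 RPKM in the order above. Its log2 fold change between genotypes was -1.16 under vehicle and -1.44 under SD, and *Chrm2* was the only one of 5 muscarinic receptors that changed. Of 13 nicotinic subunits, 3 fell under vehicle and 6 under SD, and 0 rose between genotypes. *Chrna4* had 12.7, 13.7, 7.96 and 7.33 RPKM, and *Chrna7*, the subunit of homomeric receptors, had 5.31, 5.78, 3.28 and 2.72 RPKM. Only 4 of the 13 subunits had a mean of at least 1 RPKM, of which *Chrna4* and *Chrna7* fell in both genotype comparisons. Among 6 chaperones and modulators of nicotinic receptors, 0 fell under vehicle and 3 fell under SD. These were *Lynx1*, a brake on receptor activity, with 104.5, 111.8, 72.0 and 59.7 RPKM, *Tmem35* (NACHO, an assembly factor), with 35.5, 35.9, 25.9 and 21.2 RPKM, and *Lypd6*, with 7.41, 8.79, 5.38 and 4.88 RPKM.

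Of 16 further transcription factors of motor neurons and cholinergic interneurons, 5 fell and 1 rose under vehicle, and 6 fell and 2 rose under SD. *Isl2*, the paralog of *Isl1*, had 0.779, 0.704, 0.239 and 0.272 RPKM. It fell in both genotype comparisons (-1.37 and -1.11), whereas *Isl1* at a like WT level did not. *Lhx3*, the partner of *Isl1* in the motor neuron complex, had 0.450, 0.499, 0.335 and 0.239 RPKM and fell under SD (-0.82). *Esrrg*, a nuclear receptor that marks gamma motor neurons, had 18.8, 19.6, 12.3 and 9.38 RPKM, and its relative *Esrrb* had 2.33, 2.64, 1.504 and 1.16 RPKM. Both fell in both genotype comparisons. *Lmo4*, a LIM-only protein, rose in both, with 14.2, 14.9, 23.0 and 25.6 RPKM. *Nkx6-1*, a ventral progenitor factor, had 1.27, 0.878, 1.54 and 1.52 RPKM, and rose between genotypes under SD, where the WT + SD library was its lowest.

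Of 11 structural and peptide markers of motor neurons, 7 fell and 0 rose in each genotype comparison, with medians of -0.60 under vehicle and -1.33 under SD. *Chodl*, a marker of fast motor neurons, had 19.0, 15.2, 6.69 and 3.80 RPKM. The neurofilament genes *Nefl*, *Nefm* and *Nefh* fell in both genotype comparisons, and *Nefl*, the most abundant, had 812.1, 762.9, 412.5 and 253.7 RPKM. In G93A + SD against G93A vehicle 4 of the 11 fell, with a median of -0.55, against -0.34 for the members. Of 7 genes of C-boutons and the neuromuscular organizer, 1 fell in each genotype comparison, which was *Nrg1*, a growth factor found at C-boutons, with 8.61, 7.49, 5.58 and 3.84 RPKM. *Kcnn2*, a calcium-activated potassium channel, fell in WT + SD against WT vehicle, with 11.3, 7.28, 7.77 and 7.70 RPKM. Of 6 genes of the corepressor complex that silences neuronal genes, *Rcor2* fell in G93A vehicle against WT vehicle, with 2.60, 1.97, 1.60 and 1.63 RPKM, and the other 5, among them *Hdac2* with 30.1, 32.1, 30.3 and 29.3 RPKM, did not reach 1.5-fold in any of the 4 comparisons.

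**Figure D4:**
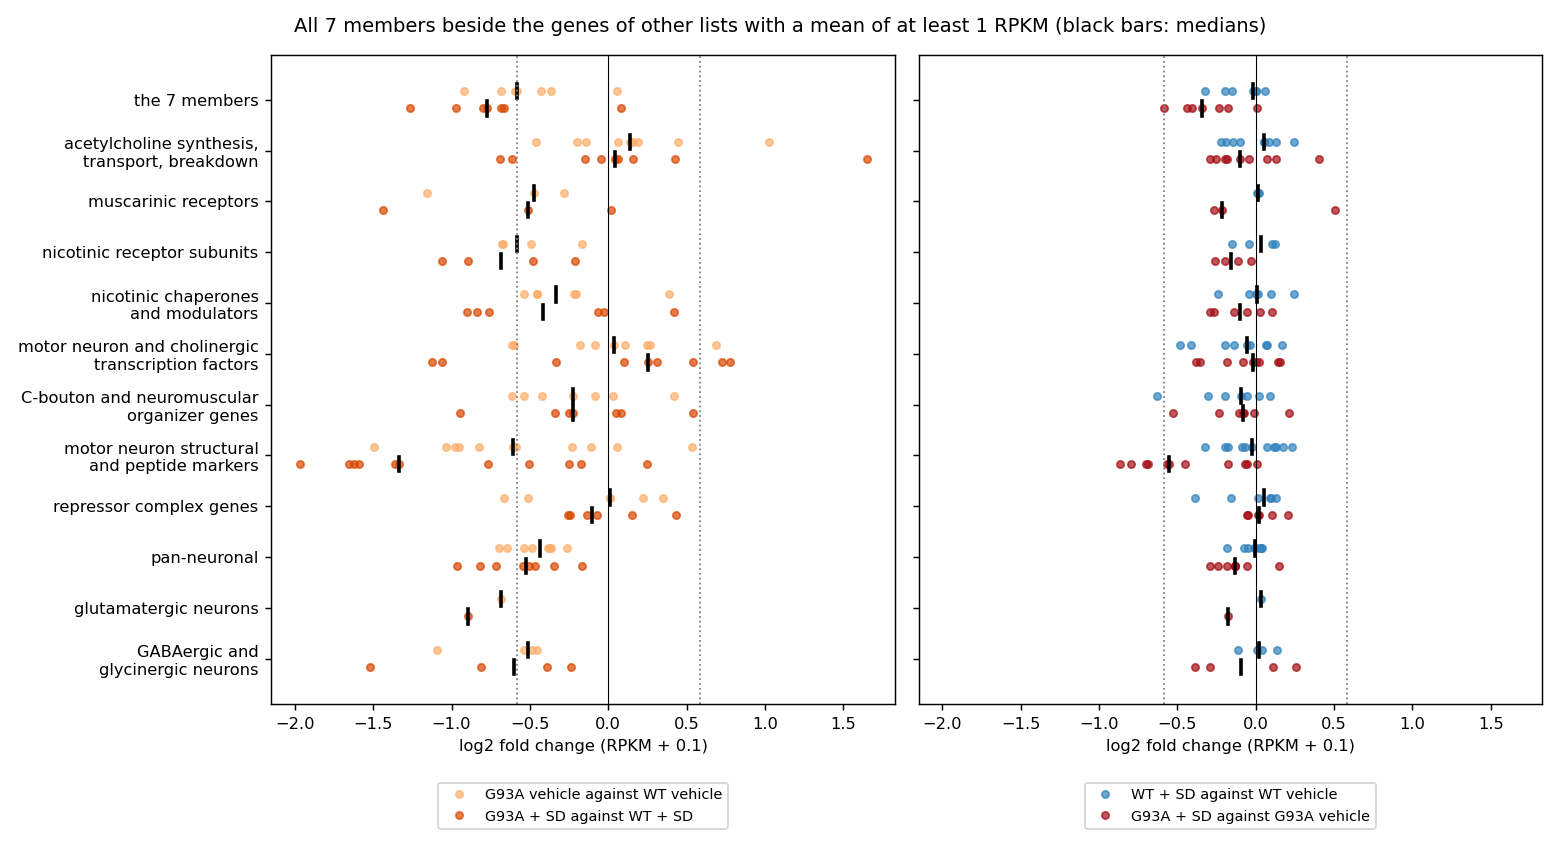
Log2 fold changes of the members and of those genes in other lists whose mean is 1 RPKM or more (points), with medians (black bars), between genotypes (left) and between SD and vehicle (right). The members other than *Isl1* lie left of 0 on the left side, close to the pan-neuronal, inhibitory and glutamatergic neuron genes, with the structural and peptide markers further to the left at the median under SD (-1.33 against -0.77) and nearly level with the members under vehicle (-0.60 against -0.58), while the genes for choline supply centre near 0.

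Markers of other spinal neurons were also compared. The 4 genes of GABAergic and glycinergic neurons had a median log2 fold change of -0.51 under vehicle and -0.60 under SD, and 1 and 2 of them fell. *Slc6a5*, the glycine transporter, had 45.9, 50.4, 21.5 and 17.5 RPKM. *Slc17a6*, which marks glutamatergic neurons, had 58.7, 60.1, 36.5 and 32.2 RPKM, and so fell by 0.68 on the log2 scale under vehicle, beside -0.58 for *Chat*. Of 3 glutamatergic markers 1 fell under vehicle and 2 under SD, and *Slc17a8* was at 0.0077 under vehicle. Markers of dorsal root ganglion neurons and of skeletal muscle were low in every library. The summed level of 5 sensory genes was between 1.75 and 1.997 RPKM, with *Scn10a* at 0 in both WT libraries. Single genes moved within that sum: *Avil* rose between genotypes, from 0.123 to 0.553 RPKM under vehicle and from 0.145 to 0.774 under SD, while *Pou4f1* fell under SD, from 1.81 to 1.06 RPKM. The summed level of 6 muscle genes was between 0.872 and 1.08 RPKM, and 1 of them, *Tnnt3*, rose between genotypes under SD, from 0 to 0.211 RPKM.

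Among 12982 other names whose mean was 1 RPKM or more, the 5 whose profile over the 4 libraries was closest to the mean profile of the members were *Ccdc48*, *Eef1a2*, *Cabp1*, *Stmn3* and *Ccdc160*. The distance, taken between centred log2(RPKM + 0.1) values, was 0.012 for *Ccdc48* and 0.031 for *Ccdc160*. *Eef1a2*, an elongation factor of neurons and muscle, had 293.9, 273.4, 203.7 and 164.4 RPKM. The 3 names closest to *Chat* alone were *Mvk* (0.034), *Nrg1* (0.041) and *Fgf3* (0.053), and *Mvk*, mevalonate kinase, had 11.2, 9.76, 7.59 and 5.08 RPKM. A distance over 4 libraries is a description of these values. The members themselves lay between 0.115 (*Slc5a7*) and 0.723 (*Isl1*) from their own mean profile.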

How the data were processed

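Lumbar cord RNA of 4 libraries was analysed from 1 table in which the authors deposited RPKM values, 1 column per library, with 0 per-sample columns left unmapped. The unit is not named and was inferred from the values. The methods name STAR on GRCm38 and HTSeq on an Ensembl gene set, while the table lists RefSeq transcripts. The rules set for a normalized unit were used, and ratio columns of the authors' own comparisons were not used. Names with several transcripts were averaged. Fold changes are log2(RPKM + 0.1) differences, called at 1.5-fold, with no filter and no test. The members and lists were chosen with earlier results of these data known. Named are the members, genes of each list that changed with a mean of at least 1 RPKM (at most 4 a list), the most abundant of each list, *Isl2*, *Lhx3*, *Bche*, *Colq*, and the nearest profiles, and some genes of the lists are not reported here. Alternatives were pseudocounts, a filter, scalings, the row kept per name, the threshold, *Chat* and *Slc18a3* as 1 entry, and the pan-neuronal median as reference. Positions are from GENCODE M21 and promoters from RefSeq (GRCm38.p6). Depth was estimated from low microRNA values, of which between 66.7% and 84.4% were whole multiples of a step (within 0.05), so it is uncertain and gives no interval. The step was searched only within a narrow range set in advance, which limits how far the depths of the libraries could differ. The tools were matplotlib 3.10.9, pandas 2.3.3 and numpy 2.4.6 under Python 3.11.15. The code for the calls was run on simulated data with large changes in abundant names only. That run gives no error rate for calls near 1.5-fold or for members at a low level.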

Additional observations from a re-analysis of the deposited data

Results flagged for a closer look

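The SD log2 fold change had opposite signs in the WT and G93A libraries for 3 of the 7 members. For *Prima1* it was 0.059 in WT and -0.17 in G93A, a difference of -0.23. For *Mnx1* it was 0.0044 in WT and -0.34 in G93A, a difference of -0.34. For *Isl1* it was -0.016 in WT and 0.0092 in G93A, a difference of 0.025. With median-of-ratios scaling the WT value of *Mnx1* was -0.0044 and the G93A value of *Isl1* -0.0018, so that neither had opposite signs there. These differences were not tested, with 1 library per condition, and of the 6 values behind them none reached 1.5-fold.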

How the results depend on the processing

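No paired analysis was possible because each condition has 1 library, and for the same reason no replicate could be left out in turn. The written design does not list the alternatives, so they cannot be shown to precede the results. No member past 1.5-fold changed sign under any of them, but values short of it did. With the same sum of RPKM in each library these were *Isl1* in both genotype comparisons (-0.034 and -0.018) and *Slc5a7* in WT + SD against WT vehicle (0.00097). With median-of-ratios scaling they were *Mnx1* in WT + SD against WT vehicle (-0.0044) and *Isl1* in G93A + SD against G93A vehicle (-0.0018). Relative to the pan-neuronal median they were *Slc5a7* (0.072) and *Prima1* (0.0059) in G93A vehicle against WT vehicle, and *Slc5a7* in WT + SD against WT vehicle (0.0059). In G93A vehicle against WT vehicle, where *Chat* sits at the threshold, the median of the members was -0.59 without a pseudocount, -0.64 with median-of-ratios scaling and -0.68 with the same sum of RPKM in each library. The members that fell numbered 1 with a pseudocount of 1 RPKM, 0 with a threshold of 2-fold and 0 relative to the pan-neuronal median. In G93A + SD against WT + SD they numbered 1 at 2-fold. Relative to the pan-neuronal median there, 1 fell and 1 rose, and their median was -0.25. In G93A + SD against G93A vehicle they numbered 0 with a pseudocount of 1 RPKM, at 2-fold, with *Chat* and *Slc18a3* averaged, and relative to the pan-neuronal median. Of the 77 pathway genes, those that fell and rose in G93A vehicle against WT vehicle numbered 7 lower with a pseudocount of 1 RPKM, 5 lower at 2-fold, and 5 lower and 15 higher relative to the pan-neuronal median. In G93A + SD against WT + SD they numbered 13 lower and 2 higher at 2-fold, and 11 lower and 23 higher relative to that median. In WT + SD against WT vehicle they numbered 2 lower and 2 higher without a pseudocount, 0 lower and 0 higher with a pseudocount of 1 RPKM and at 2-fold, and 0 higher with a mean of at least 1 RPKM. In G93A + SD against G93A vehicle they numbered 3 higher without a pseudocount, 3 lower and 0 higher with a pseudocount of 1 RPKM, 0 lower and 0 higher at 2-fold, 0 higher with a mean of at least 1 RPKM, and 3 lower and 3 higher relative to the pan-neuronal median. With a pseudocount of 1 RPKM *Mnx1* was at -0.35 under vehicle and -0.45 under SD between genotypes and *Slc18a3* at -0.56 under vehicle, all short of 1.5-fold. *Mnx1*, at an estimated 19.3 to 58.0 read pairs, is limited most by depth. The counts of members and pathway genes relative to the pan-neuronal median have no share over all names beside them.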
